A study of Mus musculus with 28 samples.

Results

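The clustered protocadherins are 58 genes of the 23453 in the exonic count table of single mouse brain cells, taken by symbol as every Pcdha, Pcdhb and Pcdhg gene with an isoform number or a C-type letter and number. Alternate α isoforms made up 12 of them, β isoforms 22, γA isoforms 12, γB isoforms 7 and C-type isoforms 5 (Pcdhac1, Pcdhac2, Pcdhgc3, Pcdhgc4 and Pcdhgc5). RNA of 28 single cells from mouse cortex was sequenced. By the sample labels, 12 neurons and 8 astrocytes came from primary culture of C57/BL6 cortex and were harvested by pipette, and 8 interneurons came from acute slices of C57/BL6/N cortex and were harvested by patch clamp pipette. For the cultured cells the labels describe a 3-month old male mouse, TruSeq Nano libraries and the NextSeq 500, and for the interneurons TruSeq Stranded libraries and the HiSeq 2500. The paper, in contrast, describes the mouse neuron and astrocyte cultures as embryonic, with both sexes mixed. The age and sex of the cultured cells are therefore not settled here. No animal or culture is named for any cell, and no treatment or allele besides the strain is given.

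The columns of the count tables carry codes, 20 beginning with BRP and 8 with F, and none of the codes occurs in a sample label. No cell was therefore assigned to a labelled type, and the cells are described as 3 blocks of codes: the 8 cells BRP564 and BRP566 to BRP572, the 12 cells BRP528 to BRP543, and the 8 F cells. The blocks are as large as the labelled groups of astrocytes, neurons and interneurons, but size is no label, so no test between blocks was made and each block is given by the values of its cells. The blocks differed in markers and in depth. In CPM (exonic counts scaled to the same total in each cell), 6 neuron markers summed to 299 to 801 in BRP564 to BRP572, 4737 to 8469 in BRP528 to BRP543 and 1608 to 16746 in the F cells. The 7 astrocyte markers summed to 1295 to 5435, 191 to 2461 and 0 to 4352 CPM in the same order, and the 7 markers of GABAergic interneurons to 39.8 to 237, 0.0572 to 3751 and 1059 to 16226 CPM. Of these 7 GABAergic markers, 5 reached 10 counts in at least 1 of the cells BRP564 to BRP572, and Lhx6 and Erbb4 were at 0 in all of them. The 3751 CPM was in BRP528, where all 7 had at least 10 counts, and BRP541 came next in its block with 350 CPM. In the same order of blocks, 4 markers of glutamatergic neurons summed to 0.425 to 136, 56.3 to 1108 and 2.35 to 350 CPM. Of the second block, BRP528 was the lowest, at 56.3 CPM. Markers of oligodendrocytes summed to at most 610 CPM in any cell and those of endothelial cells to at most 19.7 CPM. The total of exonic counts per cell was 12969692 to 19798892, 17483754 to 26770944 and 838343 to 14831505, and the number of genes with at least 10 counts was 9381 to 11286, 8106 to 9985 and 621 to 3852. The part of depth and cell type in any difference between blocks was not tested. In the labels the neurons and astrocytes share a library preparation and sequencer, whereas for the interneurons preparation and cell type cannot be told apart.

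Protocadherins are cadherin-family adhesion proteins of the cell surface, and the clustered ones are known as an identity code of neurons: cell surfaces that carry the same combination of isoforms recognise each other, which keeps the branches of a neuron apart. Each α and γ isoform is made from a large variable exon with its own promoter, spliced to exons that all isoforms of the α or γ cluster share, whereas each β gene is a single exon. In single neurons a few alternate promoters are chosen, apparently at random, through CTCF, cohesin and DNA methylation at the promoter, while C-type promoters are regulated separately and can be used by most cells of a type.

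The 58 genes lay in a row on chromosome 18 of GRCm38, from 36930285 to 37841873 on the plus strand, a span of 911.6 kb. The α genes covered 258.6 kb, the β genes 256.4 kb and the γ genes 180.1 kb. The exon that belongs to 1 isoform alone was 2340 to 5271 bp long, with a median of 2589.5 bp. Stretches of 50 bases shared with another isoform made up a median of 4.54% of this exon, with 14.7% among α genes, 4.26% among β genes and 0.73% among γ genes. The most alike was Pcdha7, with 23.4% of its stretches in another isoform, Pcdha8 above all, and 10 isoforms shared no such stretch. Reads from shared stretches could have been placed on the wrong isoform or dropped, and an annotated antisense gene covered part of the own exon of 15 isoforms. How the counting treated such reads is not given in the sources used here.

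Most entries were empty, and few held nearly all of the counts. Of the 1624 combinations of isoform and cell, 1342 had no exonic count, 119 had 1 to 9 counts, and 163 had at least 10, the minimum used here for calling an isoform detected. The 163 detections included 77 of 10 to below 100 counts, 67 of 100 to below 1000 and 19 of 1000 or more, and the 119 entries below the minimum held only 321 of the 66642 counts. The entries of 1000 or more came from 12 isoforms in 13 cells. The highest was Pcdhb19 with 3574 counts in cell F6. Together the 58 genes took 0.0151% of all exonic counts.

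**Figure D1:**
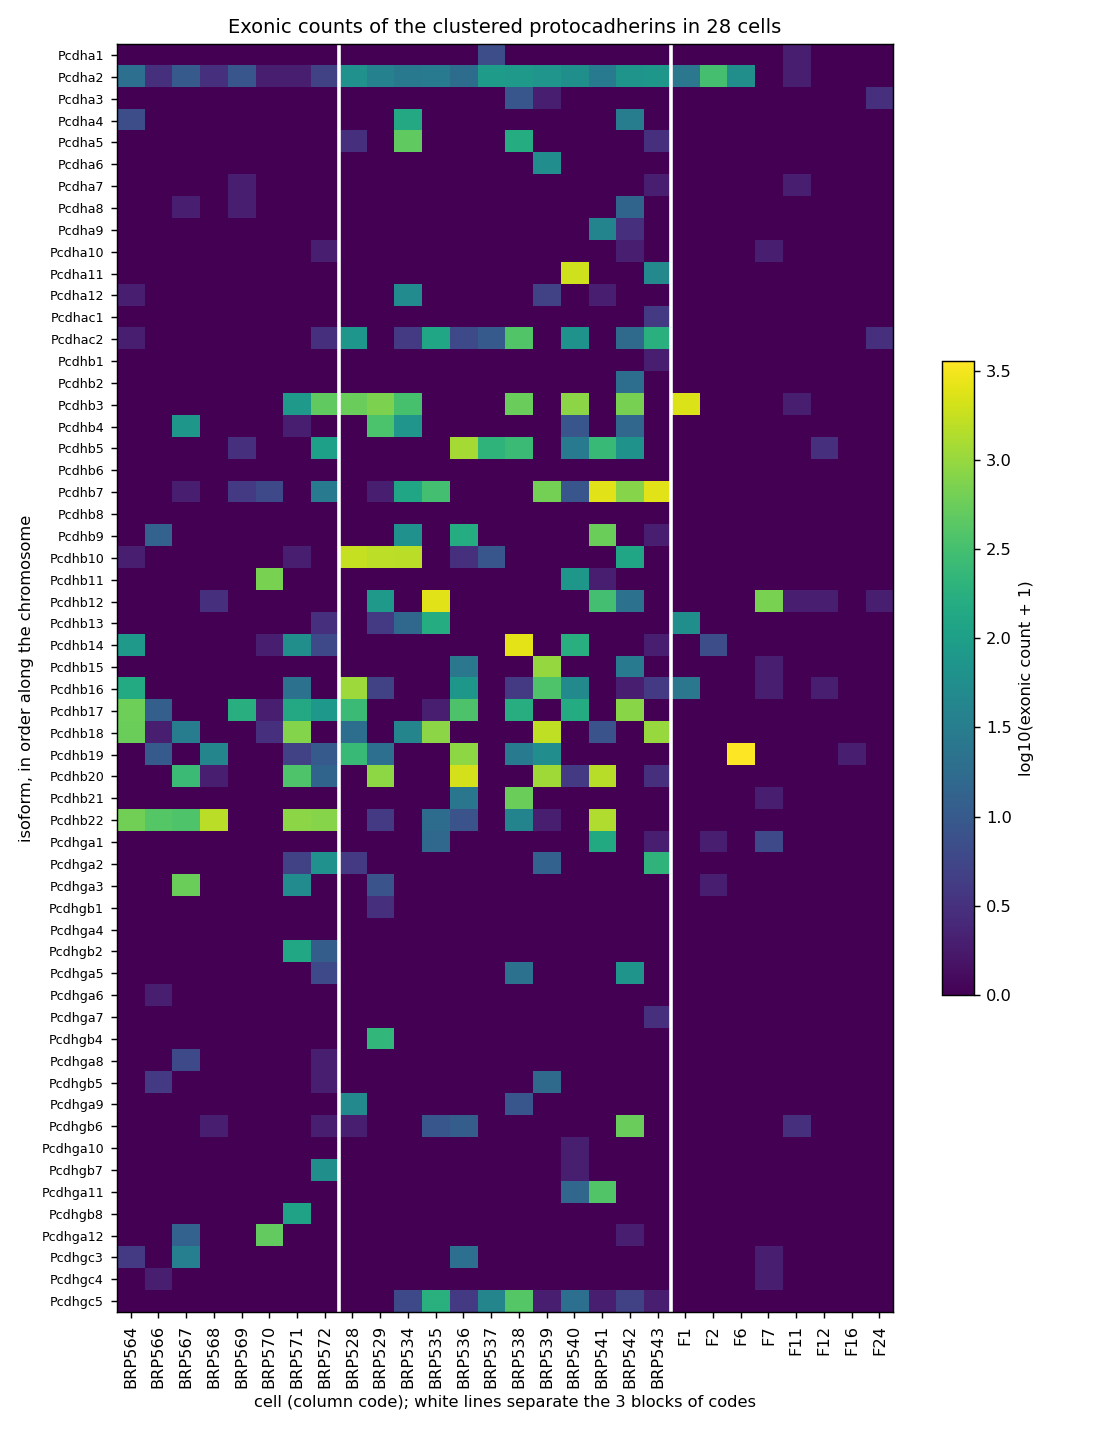
Exonic counts of the 58 isoforms (rows, in order along the chromosome) in 28 cells (columns, by code), coloured on a log10(count + 1) scale, with white lines between the 3 blocks of codes. Most entries are at 0, most filled ones lie among the β isoforms, each cell with a detected isoform has its own set, and Pcdha2 is the only isoform with counts in most cells.

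Most isoforms were detected in some cell but in few cells each. At least 10 counts in at least 1 cell were found for 43 of the 58 isoforms (74.1%), a share near the 68.1% of all 23453 genes. Only 1 isoform, Pcdha2, reached 10 counts in at least 14 of the 28 cells (1.72%, against 36.4% of all genes). In contrast, 26 isoforms were detected in 1 to 3 cells (44.8%, against 14.1% of all genes). Isoforms without a single count were Pcdhb6, Pcdhb8 and Pcdhga4 (5.17%, against 16.8% of all genes). A count of 0 over all cells allows up to 0.00679 CPM by counting error alone, but in the shallowest cell it allows up to 3.58 CPM.

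**Figure D2:**
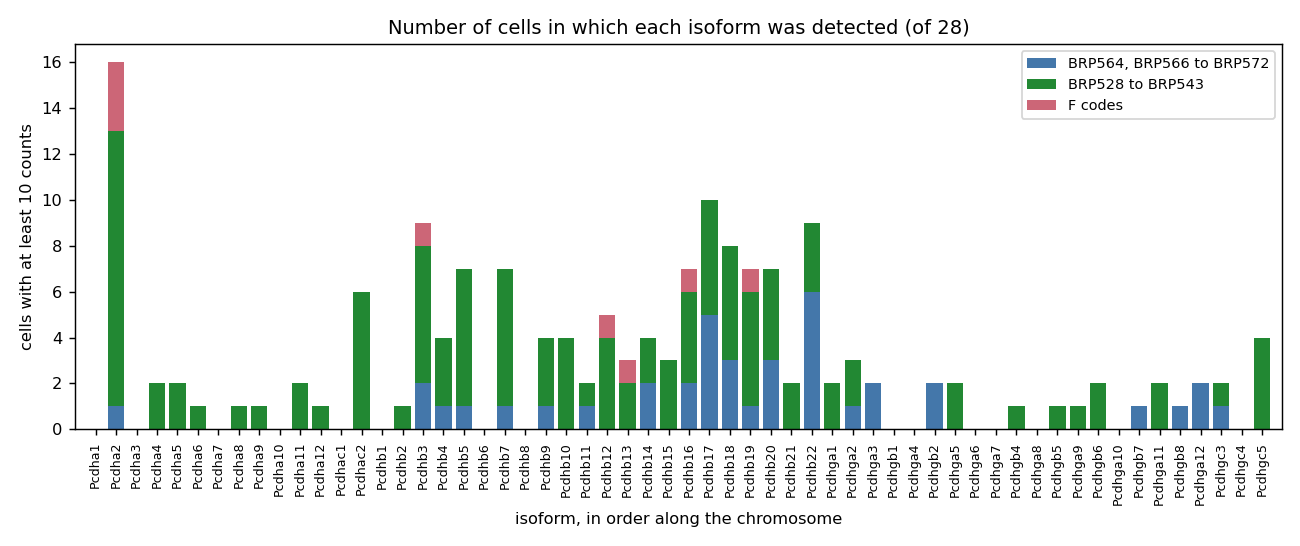
Number of cells with at least 10 exonic counts for each isoform (bars, in order along the chromosome), coloured by block of codes. Pcdha2 reaches 16 cells, the β isoforms reach up to 10, and alternate γ isoforms reach at most 3.

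Cells held a median of 6 detected isoforms, with a range of 0 to 15. Cells BRP528 to BRP543 had 3 to 15 (median 10), cells BRP564 to BRP572 had 1 to 10 (median 4.5), and the F cells had 0 to 4 (median 0.5). The ranges overlapped. At either end stood BRP542 with 15 isoforms and F11, F12, F16 and F24 with none. These 4 cells had 7, 4, 1 and 5 member counts in totals of 4390487, 2707087, 838343 and 2116359, and they were the 4 shallowest cells. When every cell was thinned at random to 800000 exonic counts, the number fell to 0 to 6 in BRP528 to BRP543 (median 4), 0 to 3 in BRP564 to BRP572 (median 2) and 0 to 1 in the F cells (median 0.5). The medians of the blocks kept their order at the same exonic total. The F median did not change, since 4 of the 8 F cells were already at 0 and the other 4 each kept 1 isoform. Thinning does not equalise the number of genes that a library captured.

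**Figure D3:**
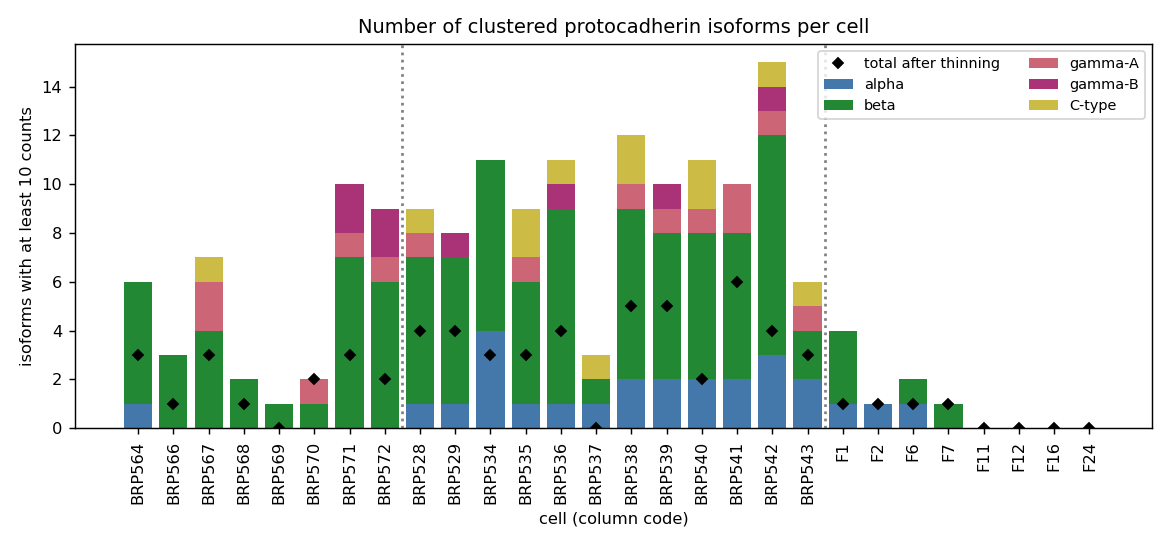
Number of isoforms with at least 10 exonic counts in each of 28 cells (bars, coloured by kind of isoform) and the number left after thinning each cell to 800000 counts (diamonds), with dotted lines between blocks of codes. β isoforms form the largest share of most bars, BRP542 has the highest bar with 15, and F11, F12, F16 and F24 have none.

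The summed level of the 58 genes differed widely between cells. In BRP528 to BRP543 it was 13.4 to 401 CPM (median 201), in BRP564 to BRP572 14.3 to 133 CPM (median 88.1), and in the F cells 1.19 to 301 CPM (median 31.0). The low end of the first range was BRP537, the most deeply sequenced cell, with 359 member counts and 3 isoforms in a total of 26770944 counts. The other 11 cells of its block had 2879 to 7047 member counts. The low level of BRP537 thus did not go with a low depth.

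In many cells 1 isoform held most of the level. Levels were compared per kb of own exon, since the β exons are longer, and over the 24 cells with a detected isoform. The leading isoform held a median of 52.3% of the summed level per kb, with a range from 24.4% in BRP542 to 98.2% in F7. It held over 50% in 14 cells and over 90% in 7. The effective number of isoforms, the inverse of the summed squared shares, was 1.04 to 5.48 with a median of 2.87. All 4 F cells with an isoform stood near 1, at 1.04 to 1.10, while BRP528 to BRP543 had 2.12 to 5.48 and BRP564 to BRP572 1.04 to 4.59. These 4 F cells also had only 2365 to 3852 genes with at least 10 counts, against 8106 to 11286 in the BRP cells. What this contributes to their low effective numbers was not tested.

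The leading isoform varied from cell to cell. In the 24 cells 15 different isoforms led, 12 of them β isoforms, which led in 21 cells. Pcdhb22, the last β gene, led in 5 cells, all within BRP564 to BRP572, Pcdhb10 in 3 cells, and Pcdhb7, Pcdhb12 and Pcdhb17 in 2 cells each. The 3 cells not led by a β isoform were BRP540, with 1979 counts of Pcdha11, BRP567, with 563 counts of Pcdhga3, and F2, with 322 counts of Pcdha2. Without division by exon length the same isoform led in 23 of the 24 cells. The exception was BRP539, in which Pcdhb15 (970 counts) led per kb and Pcdhb18 (1631 counts) by counts.

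Among the F cells, F1 was led by Pcdhb3 (2352 of 2459 member counts), F2 by Pcdha2 (322 of 330), F6 by Pcdhb19 (3574 of 3630) and F7 by Pcdhb12 (678 of 689). Exact 95% binomial intervals of these shares of counts were 94.8% to 96.4%, 95.3% to 98.9%, 98.0% to 98.8% and 97.2% to 99.2%, and they cover counting error only, since reads of amplified RNA are not independent molecules. Each of the 4 cells was thus led by a different isoform. Cell F7 also had 4352 CPM of astrocyte markers, although Aqp4, Aldoc, S100b and Aldh1l1 were at 0 there and 2 of the 7 markers had at least 10 counts. In F16, 2093 CPM of microglia markers were found and only 1 member count. All of this marker level was Csf1r, and the other markers, C1qa, C1qb and Cx3cr1, were at 0 there. Whether RNA of another cell contributed to their isoforms was not tested.

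**Figure D4:**
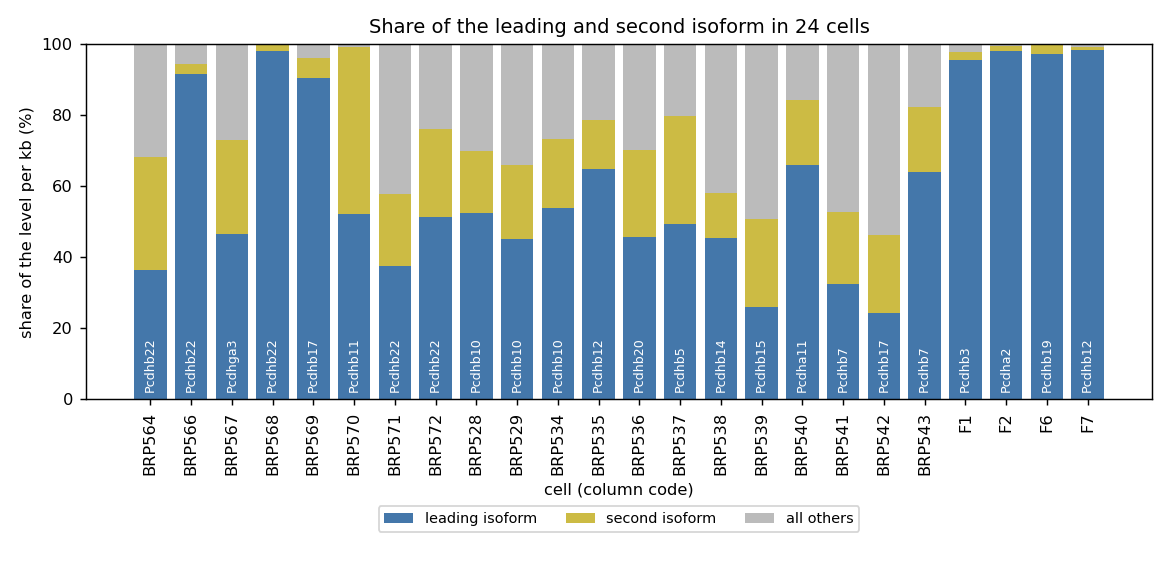
Share of the leading isoform (blue, named in the bar), the second isoform (yellow) and all others (grey) in the summed level per kb of own exon, in percent, for the 24 cells with a detected isoform. F1, F2, F6 and F7 and the cells BRP566, BRP568 and BRP569 are led by 1 isoform with over 90%, and BRP542 has the lowest leading share, 24.4%.

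At the minimum of 10 counts, no pair of cells had the same set of isoforms. Among the 24 cells there were 24 different sets, and 23 different sets remained in 23 cells when only β isoforms were counted. At a minimum of 100 counts, 1 pair of cells became identical, with 23 sets in 24 cells, and after thinning 1 pair was identical, with 21 sets in 22 cells. Of the 276 pairs of cells, 75 shared no isoform, the median pair shared 1, and the most alike by number, BRP538 and BRP540, shared 7 (Pcdha2, Pcdhac2, Pcdhb3, Pcdhb5, Pcdhb14, Pcdhb17 and Pcdhgc5). As a share of all isoforms detected in either cell, the overlap was 11.1% in the median pair. The same overlap was not computed over all genes, or over other genes found in as few cells. The median was 2 cells per isoform, and the part of such low detection in the little sharing was not tested.

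Sharing was highest within BRP528 to BRP543, where cells also had the most isoforms: the median of 66 pairs was 3 shared isoforms, or 2 without Pcdha2, and every pair shared at least Pcdha2. Within BRP564 to BRP572 the median of 28 pairs was 1 and 8 pairs shared none. The highest number there was 5, in BRP564 and BRP571 (Pcdhb14, Pcdhb16, Pcdhb17, Pcdhb18 and Pcdhb22) and in BRP571 and BRP572 (Pcdhb3, Pcdhb17, Pcdhb20, Pcdhb22 and Pcdhgb2). In the 6 pairs of F cells nothing but Pcdha2 was shared. A larger repertoire allows more overlap, so these numbers are read beside the number of isoforms per cell and not as a difference between blocks.

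The β isoforms, adhesion receptors without the shared cytoplasmic part of α and γ, carried most of the counts. They took 86.5% of all member counts and 103 of the 163 detections, and 19 of the 22 were detected, in a median of 4 cells each. Per kb they made up a median of 89.4% of the summed level per cell. The lowest β shares were in the cells led by another kind: 1.33% in F2, 29.4% in BRP540 and 48.6% in BRP567. A β transcript lies wholly in its own exon, whereas reads within the exons shared by α or γ isoforms point to no single isoform. Division by own exon length does not correct for this, and its part in the β share was not tested.

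Pcdhb17 was detected in more cells than any other β isoform, 10 of 28, followed by Pcdhb3 and Pcdhb22 with 9 each and Pcdhb18 with 8. Pcdhb17 had 581, 11, 170, 140 and 78 counts in BRP564, BRP566, BRP569, BRP571 and BRP572, and 266, 362, 164, 153 and 837 counts in BRP528, BRP536, BRP538, BRP540 and BRP542. The remaining 18 cells had 0 or 1 count. Where it was detected, its level ran from 0.70 CPM in BRP566 to 40.8 CPM in BRP542, and it overlapped between both blocks. A count of 0 in the shallowest cell allows up to 3.58 CPM, so absence cannot be read in every cell.

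Pcdhb22 had 627, 406, 380, 1533, 859 and 816 counts in BRP564, BRP566, BRP567, BRP568, BRP571 and BRP572. In BRP569 and BRP570 it had none. Among BRP528 to BRP543 it was detected in 3 of 12 cells, with 1362 counts in BRP541, 39 in BRP538 and 17 in BRP535, and no F cell had a count. It was the isoform found most often in BRP564 to BRP572, in 6 of 8 cells at 380 counts or more, but BRP541 lay within the range of those 6, so the blocks overlapped.

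Pcdhb3 was detected in 6 of the 12 cells BRP528 to BRP543, at 331 to 869 counts, in BRP571 (82 counts) and BRP572 (483 counts), and in F1 (2352 counts). Its highest level was thus in an F cell in which it was the leading isoform, and F11 had 1 count. Pcdhb18 reached 1631 counts in BRP539, 1012 in BRP543 and 858 in BRP535, and 770 and 569 counts in BRP571 and BRP564. In no F cell did it have a count.

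Pcdhb7 and Pcdhb10 were mostly found in BRP528 to BRP543, in 6 and 4 of the 12 cells, against 1 and 0 of the 8 cells BRP564 to BRP572. Pcdhb7 had 2469 counts in BRP541 and 2458 in BRP543, 126 to 808 in BRP534, BRP535, BRP539 and BRP542, and 28 in BRP572. Pcdhb10 stood at 1732, 1588 and 1524 counts in BRP528, BRP529 and BRP534, which it led, and at 121 in BRP542, and at 8 counts or fewer elsewhere. Pcdha2 and Pcdhb3 were the other isoforms that these 3 cells had in common. Pcdhb20 was found in 4 of the 12 cells and 3 of the 8. It had 2115, 1476, 1123 and 881 counts in BRP536, BRP541, BRP539 and BRP529, and 377, 267 and 13 counts in BRP571, BRP567 and BRP572.

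Some β isoforms were high in 1 or 2 cells and low or absent in the others. Pcdhb14 had 2577 counts in BRP538 and at most 170 elsewhere, Pcdhb12 had 2469 in BRP535 (116 CPM), 678 in the shallower F7 (78.0 CPM) and at most 314 elsewhere, and Pcdhb11 had 687 in BRP570 and 75 in BRP540. Pcdhb15 led BRP539 with 970 counts and had at most 29 in any other cell, and Pcdhb5, leader of BRP537 with 206 counts, was higher in BRP536, with 1179. By position along the chromosome, which was looked at only after the values were seen, 8 of the first 11 β genes were detected with 38 detections, and all 11 of the last 11 with 65. The first 11 include Pcdhb6 and Pcdhb8, at 0 in every cell, and Pcdhb1, at the start of the cluster, with 1 count in all.

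Among α isoforms Pcdha2 was unlike the rest. It had a count in 24 of 28 cells and at least 10 counts in 16, whereas no other alternate α isoform was detected in more than 2 cells. All 12 cells BRP528 to BRP543 had it, at 17 to 90 counts with a median of 59. In BRP564 to BRP572 it had 1 to 19 counts with a median of 3, and only BRP564 reached 10. Both of these ranges overlapped at 17 to 19 counts, and neither block contained a cell without it. Among the F cells it had 322 counts in F2, 56 in F6, 25 in F1 and 1 in F11, and 0 in the other 4.

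Pcdha2 differed from the β isoforms in how its counts were spread: the 12 cells BRP528 to BRP543 all lay within 17 to 90, in contrast to the 0 to 2469 of Pcdhb7 in the same cells. After thinning to the same exonic total it was detected in 1 cell only. Of its stretches of 50 bases, 10.3% occurred in another isoform, Pcdha1 above all. Pcdha1 itself had 7 counts in all, and no annotated antisense gene covers the own exon of Pcdha2. What reads of shared stretches or shared exons contributed to the counts of Pcdha2 was not tested.

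The other 11 alternate α isoforms were rare. Of these 7 were detected, with 10 detections in 7 cells, all in BRP528 to BRP543. Pcdha11 had 1979 counts in BRP540 and 46 in BRP543, and none in the other 26 cells. Pcdha5 had 486 counts in BRP534, 156 in BRP538, and 2 each in BRP528 and BRP543, and Pcdha4 had 140 in BRP534, 30 in BRP542 and 6 in BRP564. BRP534 held 4 alternate α isoforms (Pcdha2, Pcdha4, Pcdha5 and Pcdha12), the most of any cell. The own exons of Pcdha4 and Pcdha11 overlap annotated antisense genes. The same holds for other isoforms, among them Pcdha12, Pcdhb12, Pcdhga11, Pcdhga12 and Pcdhgc3. Without the strand setting of the counting, the reads of each cannot be told apart from antisense reads.

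The γ isoforms share a cytoplasmic part that is known to act in the survival and branching of neurons. Of the 19 alternate ones, 13 were detected, in 1 to 3 cells each, with 22 detections in 14 cells and none in an F cell. The γA isoform found most often was Pcdhga2, with 202 counts in BRP543, 62 in BRP572 and 12 in BRP539. The highest levels were 563 counts of Pcdhga3 in BRP567, which it led, 552 of Pcdhgb6 in BRP542, 507 of Pcdhga12 in BRP570 and 391 of Pcdhga11 in BRP541. Each of these 4 isoforms had at most 50 counts in any other cell. In BRP570, the level was split between Pcdhb11 with 52.2% and Pcdhga12 with 47.0% per kb, and no other isoform was detected there.

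The C-type isoforms were found in fewer cells than Pcdha2. Pcdhac2 was detected in 6 cells, all in BRP528 to BRP543, with 390, 179, 126, 73, 64 and 16 counts in BRP538, BRP543, BRP535, BRP528, BRP540 and BRP542. The other cells of the block had 0 to 9 counts, and cells outside it 0 to 2. Pcdhgc5 was detected in 4 cells of the same block, with 408 counts in BRP538, 178 in BRP535, 40 in BRP537 and 19 in BRP540, and it had no count in any other block. Of these 4 cells 3, BRP535, BRP538 and BRP540, also had Pcdhac2. BRP538 thus had the highest level of both.

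Pcdhgc3 had 33 counts in BRP567 and 19 in BRP536 and at most 3 elsewhere. Pcdhac1 had 3 counts, all in BRP543, and Pcdhgc4 had 1 count each in BRP566 and F7, so neither was detected. No C-type isoform reached 10 counts in an F cell, but the 8 F cells held only 8 detections of any kind, so an absence of C-type isoforms could not be read from them at this depth. These 5 genes shared no stretch of 50 bases with another isoform.

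Intronic counts did not separate the isoforms. The intronic table lists 36 of the 58 genes, all of them α or γ, since β genes have a single exon. Of these only Pcdha1 had counts, 10 in all over 7 cells. Intronic counts of the locus were instead held by an entry named Pcdha4-g, which RefSeq lists as Gm37013, from 36952648 to 37841873 on chromosome 18. It spans 889.2 kb and 55 of the 58 genes, all 22 β genes among them. Pcdha4-g had 51570 intronic counts and no exonic count, and it was counted in all 28 cells, at 9 to 7826.

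Pcdha4-g therefore gives 1 number for nearly the whole span, without the isoform. What these counts measure is not established, since the counting rule is not given. In CPM of intronic counts Pcdha4-g was 240 to 848 in BRP564 to BRP572 (median 313), 31.1 to 2222 in BRP528 to BRP543 (median 667) and 1.31 to 2809 in the F cells (median 51.5). BRP537, low in exonic member counts, was also the lowest of its block here, with 201 counts. The F cells gave opposite pictures: F6 had 9 intronic counts beside 3574 exonic counts of Pcdhb19, F7 had 7826 beside 678 of Pcdhb12, and F1 had 2337 beside 2352 of Pcdhb3. F11, F12, F16 and F24, without a detected isoform, had 217, 118, 9 and 216 intronic counts.

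**Figure D5:**
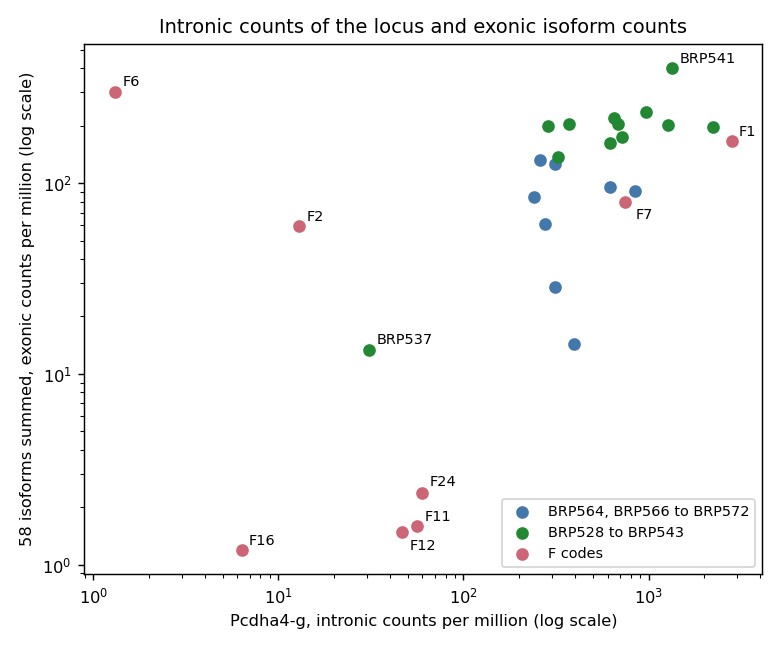
Intronic CPM of Pcdha4-g, the entry that spans 55 of the 58 genes (x axis, log scale), against the summed exonic CPM of the 58 isoforms (y axis, log scale) in 28 cells, coloured by block of codes. Most BRP cells lie close together at the upper right, BRP537 lies apart at 31.1 and 13.4 CPM, and F6 has 301 exonic CPM at 1.31 intronic CPM.

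Genes known to act with the clustered protocadherins were found in far more cells. Of 8 genes for CTCF and cohesin (Ctcf, Rad21, Smc1a, Smc3, Stag1, Stag2, Nipbl, and Wapl, listed as Wapal), all 8 had at least 10 counts in 14 or more cells, against 36.4% of all genes. CTCF binds the promoters and enhancers of the clusters, and cohesin holds them together. Ctcf had medians of 65.8 CPM in BRP564 to BRP572, 57.98 in BRP528 to BRP543 and 0.268 in the F cells. For Rad21, a cohesin subunit, the medians were 319, 71.7 and 0.309 CPM, and the ranges of the first 2 blocks, 109.8 to 424 and 9.40 to 195 CPM, overlapped.

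Of 7 genes of DNA methylation and repression, 5 passed in 14 or more cells. Dnmt3a, a DNA methyltransferase, had 34.2 to 125 CPM in BRP564 to BRP572, 25.0 to 394 in BRP528 to BRP543, and at most 0.683 in the F cells. Its median was 89.99 in the first block and 243 in the second. Dnmt3b, the related enzyme that is known to methylate protocadherin promoters early in development, had at least 10 counts in 6 cells and at most 3.99 CPM, and Rest, a repressor of neuronal genes, in 7 cells. Smchd1, which silences clustered genes, had medians of 94.4, 18.9 and 0 CPM. Setdb1 and Ehmt2, histone methyltransferases, and Hdac1, a histone deacetylase, each had at least 10 counts in 21 cells.

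All 9 signalling partners (Fyn, Ptk2, Ptk2b, Cyfip1, Cyfip2, Wasf1, Nckap1, Abi1 and Rac1) and all 4 genes of cleavage and adhesion (Adam10, Ctnnb1, Cdh2 and Grip1) also passed in 14 or more cells. Wasf1, a part of the WAVE complex that the α tail binds, had medians of 19.7 CPM in BRP564 to BRP572, 217 in BRP528 to BRP543 and 0.583 in the F cells. Cyfip1, another part, stood at 452, 65.8 and 0.903 CPM, and Cyfip2, its relative, at 32.8, 168 and 118. Ptk2b, a kinase that α and γ tails are known to restrain, was the rarest of the 9, with 14 cells. Adam10, the protease that cleaves protocadherins at the surface, had medians of 112, 60.3 and 0.124 CPM. In the F cells, most genes of these lists had medians near 0, but Cyfip2 and Rac1 had medians of 118 and 352 CPM. The number of genes detected in the F cells was also low, and what this contributed was not tested.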

How the data were processed

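RNA-seq counts of 28 single mouse brain cells were used. The authors deposited an exonic and an intronic table of counts, which hold whole numbers and were not normalized. The submitters' processing notes name bcl2fastq 2.17, STAR 2.4.0 and mm10. The counting tool, annotation, strand setting and treatment of shared reads are not given in the sources used here. No column code occurs in a label, so 28 columns were matched to no sample, and no test, mean or SD over cells was computed. Each cell was collected singly, and no doublet caller was run.

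The 58 genes were taken by symbol. An isoform was called detected at 10 or more exonic counts. CPM used the table's total per cell. Levels between isoforms were divided by the length of the exon bases that no other isoform has, on GRCm38. For β genes this length was taken from the RefSeq start and end. For α and γ genes it ran from the RefSeq start to the exon end in GENCODE M21. Cells were thinned to 800000 counts by drawing without replacement. Shared sequence was measured as stretches of 50 bases found in another isoform's own exon. Pcdha10 carries the symbol Pcdha11 in GENCODE M21, and Pcdhgb8 is a pseudogene there. All 58 symbols matched RefSeq. No sequence is reported here.

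Named genes were the C-type isoforms, in each cluster the 4 found in the most cells and the 4 with the highest summed CPM, the leading isoforms, those at 0, and the listed regulators and partners, of which 1 gene is not reported here. Any other isoform named was chosen after its values were seen. The members, gene lists and alternatives were chosen with earlier results of these data known. The calculations were tested on simulated data in which every active isoform had counts far above the minimum, so calls near the minimum were not tested. Python 3.11.15, numpy 2.4.6, pandas 2.3.3 and scipy 1.17.1 were used, with R 4.3.3, edgeR 4.0.16 (TMM) and DESeq2 1.42.0 (size factors) for alternative scalings only. The alternatives were other count minimums, a minimum of 1% of the highest cell, thinning, other scalings, intronic counts added, C-type isoforms left out, each kind of code alone and each cell left out in turn.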

Additional observations from a re-analysis of the deposited data

How the results depend on the processing

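Numbers of isoforms were taken as unchanged within 1.5 times, and other values within the range given by leaving out each cell in turn. By this measure 43 values moved and 29 did not. The median of 6 isoforms per cell became 11 at a minimum of 1 count, 3 at 100 counts and 2 after thinning, and was 0.5 in the F cells alone. The 43 isoforms detected became 27 after thinning and 6 in the F cells alone. The median of 2 cells per isoform became 1 at 100 counts, 0 after thinning and 0 in the F cells alone. The median of 1 isoform shared by a pair became 2 at 1 count, 2 at 3 counts, 0 at 100 counts, 0 after thinning, 2 in the BRP cells alone and 0.5 in the F cells alone. The number of isoforms called therefore depends on depth and on the minimum.

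The median effective number of 2.87 became 2.66 with isoforms of at least 10 counts only, 2.50 without C-type isoforms, 2.62 after thinning, 3.02 in the BRP cells alone and 1.05 in the F cells alone. In the same order, the leading share of 52.3% became 52.9%, 54.6%, 54.0%, 50.3% and 97.6%, and the β share of 89.4% became 89.9%, 91.8%, 89.5%, 89.2% and 97.8%. The median summed level of 130 CPM became 105 with TMM, 89.8 with DESeq2 size factors, 115 with intronic counts added, 150 in the BRP cells alone and 31.0 in the F cells alone. Why they shifted was not tested.

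Other settings were chosen after seeing the data. With counts not divided by length, the effective number was 2.81, the leading share 54.8% and the β share 91.5%. Without Pcdha2 they were 2.52, 53.9% and 89.97%. The level was 150 CPM without the 4 cells that had no detected isoform and 135 CPM without F7 and F16.

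Leaving out each cell in turn gave 6 to 6 isoforms per cell, 41 to 43 isoforms detected, 2 to 2 cells per isoform, 1 to 1 isoforms shared, an effective number of 2.82 to 2.93, a leading share of 52.2% to 52.3%, a β share of 89.3% to 89.4% and a level of 127 to 133 CPM. No paired analysis was possible because the columns carry no replicate numbers and no test was made. The F cells are 7 of the 8 shallowest cells, and what depth contributes to their low numbers was not tested beyond thinning.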
